A study of Mus musculus with 14 samples.

Results

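Mouse embryonic fibroblasts (MEF) were set against the cells that a chemical reprogramming protocol had made of them by day 18 (D18), the last day in its first medium. The comparison rests on 6 of the 14 mouse libraries, 3 of each group, and takes in every gene with enough reads in these 6, which was 17255 of the 55291 gene symbols in the deposited table. A further 24784 symbols had no read in any of the 6 libraries. The question was which genes had changed, on balance, between the fibroblasts and the end of the first stage.

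The study converts fibroblasts into retinal pigment epithelium (RPE), the pigmented layer that serves the photoreceptors, in 2 stages with a medium each. The MEF and D18 cells, and the day 7 cells described below, came from E13.5 embryos of C57BL/6J mice and carried no transgene named in the labels. The MEF libraries are the starting cells, although the labels enter the first medium as their treatment too. The D18 cells had been kept for 18 days in a serum-free medium with bFGF, CHIR-99021 (a GSK3 inhibitor that activates Wnt signalling), LDN193189 (a BMP receptor inhibitor), A 83-01 (a TGF-beta receptor inhibitor), Hh-Ag1.5 (a Smoothened agonist that activates Hedgehog signalling), RG108 (a DNA methyltransferase inhibitor), BMS-345541 (an IKK inhibitor) and CKI-7 (a casein kinase inhibitor). Per the protocol, cells for RNA were scraped from areas whose induction looked successful, so the D18 libraries describe chosen cells. The labels do not say whether the replicates were separate cultures or embryos, and p-values measure the spread between these libraries, which may be technical.

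Fibroblasts make and hold the collagen matrix of connective tissue, and in culture on plastic many take on a contractile state driven by TGF-beta and by the mechanosensitive YAP coactivator. Astrocytes, the star-shaped glia of the brain, take up glutamate, buffer water and ions and fill with the filament GFAP. Ependymal cells, which line the ventricles and carry motile cilia, arise like astrocytes from radial glia, under the transcription factor Foxj1.

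Total counts ran from 35507532 to 40156109 in the MEF libraries and from 34560073 to 38085076 in the D18 libraries. The MEF libraries were nearly alike, with a biological coefficient of variation, the relative spread beyond counting, of 0.0425, and the D18 libraries were less so, at 0.234. Replicate 3 of D18 differed from the other D18 libraries mainly in 1 direction. Among genes at 10 CPM or more, it held 265 genes at 2-fold or more below the mean of the other D18 libraries and 15 above it. Replicate 1 had 37 below and 90 above, and replicate 2 had 137 below and 109 above. By a chi-square of the counts per degree of freedom, replicates 1 and 3 were the closest D18 pair, at 61.5. Replicates 1 and 2 gave 72, and replicates 2 and 3 gave 93.4. Where leaving out replicate 3 changed the call of a named gene or moved a count by over 1.5 times, the value without it is given too. Levels below are in CPM, read counts relative to the library's size and multiplied up to a common total, on library sizes with trimmed-mean scaling (TMM), and "rose" or "fell" means a Benjamini-Hochberg adjusted p under 0.05 in edgeR's quasi-likelihood test over all 17255 genes.

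Of these genes, 13610 (78.9%) changed. At D18, 7016 (40.7%) were higher and 6594 (38.2%) lower, 5131 (29.7%) and 3938 (22.8%) of them by 2-fold or more. For 14323 genes (83.0%) the 3 MEF and the 3 D18 libraries did not overlap. With so many genes called, a single call says little, so the lists of genes below are described by their counts beside these shares and by their median log2 change beside 0.05 for all genes tested. Folds are D18 over MEF or the reverse, and log2 changes are D18 minus MEF, each with its standard error (SE).

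**Figure D1:**
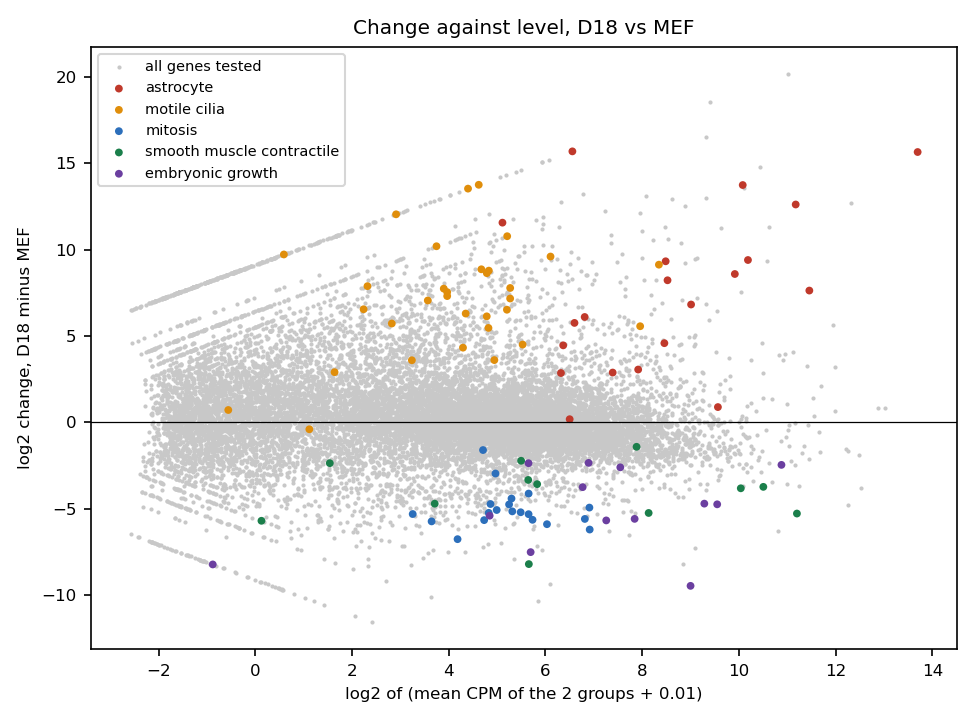
Log2 change between MEF and D18 (vertical axis) against the log2 of the mean level of both groups in CPM (horizontal axis) for 17255 genes, with 5 gene lists in colour. Most astrocyte and motile cilia genes lie far above 0, to a log2 change of 15.70 for Ntsr2, with Nfib at 0.18 and Tekt2 at -0.41 near it, and the mitosis, contractile and embryonic growth lists lie below 0 in full; the straight streaks at the edges are genes without reads in 1 group, whose fitted change depends on a small added count.

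The highest gene of the D18 cells was an astrocyte filament that MEF barely held. Gfap (GRCm38 chr11:102887336-102900912, GENCODE vM21) stood at 0.518, 0.636 and 0.369 CPM in MEF and at 31178, 20177 and 28350.3 CPM at D18, a log2 change of 15.66 (SE 0.34, edgeR adjusted p = 5.7e-08). Every D18 library was far above every MEF library, and Gfap was the most abundant gene of the D18 group. Of the 20 genes on the astrocyte list, 19 (95%) rose, 0 fell and 1 did not pass, with a median log2 change of 7.23. Their summed level ran from 806 to 847 CPM in MEF and from 40464 to 55876 CPM at D18. In bulk RNA, more cells of a type and more of its RNA per cell cannot be told apart.

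The genes that rose included channels, transporters and enzymes. Aqp4, the water channel of astrocyte endfeet, went from 0.122, 0.0553 and 0.284 CPM to 2206, 1975 and 2311 CPM. Slc1a2 and Slc1a3, the glutamate transporters GLT-1 and GLAST, reached 644 to 794 CPM and 999 to 1056 CPM, from at most 1.55 and 9.25 CPM. Glul, the glutamine synthetase that disposes of that glutamate, rose less, from 38.3 to 41.7 CPM in MEF to 274 to 336 CPM (log2 2.88, SE 0.10). Atp1b2, a glial subunit of the sodium pump, went from 0.664 to 0.792 CPM to between 4007 and 5042 CPM (log2 12.62, SE 0.18). Aldoc, a glycolytic enzyme of astrocytes, went from 2.89 to 3.86 CPM to between 1674 and 2845 CPM. Aldh1l1, the folate enzyme often used to mark astrocytes, rose by 5.76 on the log2 scale (SE 0.21), and Clu, a secreted chaperone, by 7.63 (SE 0.15). Gja1, the connexin 43 gap junction protein that fibroblasts hold too, changed by 0.88 (SE 0.10).

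Genes for 3 of the transcription factors that drive glial fate were on the list and moved to different extents. Sox9 stood at 49.7, 54.5 and 51.5 CPM in MEF and at 344, 402 and 549 CPM at D18. Nfia went from between 19.4 and 19.5 CPM to between 135 and 147 CPM (log2 2.85, SE 0.06). Nfib, its paralog, was the member that did not pass, at 83.1 to 86.5 CPM in MEF and 87.8 to 106 CPM at D18.

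Several of the steepest rises over all genes were of the same kind. Ranked by log2 change among named genes of at least 10 CPM without overlap between the groups, the first 10 were Lcn2, Gpr37l1, Saa3, Ntsr2, Mmd2, Gfap, Slc6a11, Fam216b, Reg3g and Mlc1. The place of a gene without MEF reads in this order depends on a small count added in the fit. Gpr37l1 is a receptor of astrocytes; it had 0 counts in MEF and 1551, 1267 and 1239.9 CPM at D18, at least 46980-fold higher if the MEF group is credited with 3 counts. Ntsr2, a neurotensin receptor of astrocytes, had 0 counts in MEF and 180.2 to 194 CPM at D18 (at least 6549-fold higher). Slc6a11, the GABA transporter GAT-3, had 0 counts in MEF and 62.5 to 192 CPM at D18 (at least 4636-fold). Mlc1, a membrane protein of astrocyte endfeet, went from 0 to 0.170 CPM to between 2337 and 3126 CPM.

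Acute-phase genes, some of which mark astrocytes under inflammation, were also among the steep rises. Lcn2, the iron-scavenging lipocalin, had 0 counts in every MEF library and stood at 3180.0, 5986 and 3295 CPM at D18, at least 145600-fold higher. C3, the central complement component, went from 1.42 to 1.64 CPM to 13073, 7180.0 and 10401 CPM and was the third most abundant gene of the group. On the list of 14 reactive astrocyte genes, 11 (78.6%) rose, 2 fell and 1 did not pass, with a median of 3.09. Serpina3n, a protease inhibitor, went from 3.91 to 5.11 CPM to between 1999 and 3602 CPM, and Steap4, a metalloreductase, from at most 0.221 CPM to between 871 and 1077 CPM. Vim, the filament vimentin, was already at 5857 to 6207 CPM in MEF and rose by 0.84 (SE 0.11). Emp1 and S100a10 fell, by 3.55 and by 0.73 on the log2 scale, and both are membrane-associated proteins also made by fibroblasts. Timp1, a metalloprotease inhibitor, did not pass, at 259 to 279.7 CPM in MEF and 57.2 to 217 CPM at D18, nor without D18 replicate 3 (log2 -0.85).

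Genes of motile cilia rose with almost no exception. Of the 32 genes tested, 30 (93.8%) rose, 0 fell and 2 did not pass. The median log2 change was 7.24, or 7.12 with the 4 genes without reads in MEF set to their lower bounds. The summed level of the list ran from 30.9 to 34.2 CPM in MEF and from 1772 to 2723 CPM at D18.

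The regulators of the ciliated state were among them, at unequal levels. Foxj1 (chr11:116330704-116335399), the master factor of motile cilia, stood at 1.28, 1.05 and 1.13 CPM in MEF and at 718, 524 and 708 CPM at D18 (log2 9.13, SE 0.19). Rfx2 and Rfx3, the factors that bind the X-box of ciliary promoters, rose from at most 4.08 and 5.11 CPM to between 73.1 and 96.9 CPM and between 46.0 and 67.4 CPM. The inducers of the multiciliated programme were far lower. Gmnc, which acts at its start, had 0 counts in MEF and 4.16, 1.28 and 3.53 CPM at D18. Ccno, needed to amplify centrioles, went from 0.691 to 0.794 CPM to between 3.49 and 7.78 CPM. Mcidas, another inducer of that programme, and Deup1, of the deuterosome, had too few reads to test, at most 0.940 and 2.56 CPM. Myb, also of that programme, did not pass.

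The structural parts of the cilium rose from close to nothing. Dnah9, a heavy chain of the outer dynein arm, went from 0.0609, 0.0553 and 0 CPM to 105, 35.4 and 81.5 CPM. Tekt1, a tektin inside the axonemal microtubules, had 0 counts in MEF and 52.6, 44.4 and 50.5 CPM at D18 (at least 1706-fold higher). Rsph4a, of the radial spokes, went from at most 0.166 CPM to between 30.3 and 70.2 CPM (log2 8.79, SE 0.53), and Hydin, of the central pair, from 2 counts over the MEF libraries to 13.9 to 36.4 CPM, a ratio of 1384 with an exact 95% counting interval of 383 to 11440. Tekt2 was the structural gene that did not pass, at 1.84 to 3.14 CPM in MEF and 1.57 to 2.28 CPM at D18. Against the mean of the other D18 libraries, the list's median log2 level was 0.47 in D18 replicate 1, -0.76 in replicate 2 and 0.24 in replicate 3. All D18 libraries still lay above every MEF library for each of the 30 genes that rose.

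RFX factors bind the X-box, and promoter sequences from RefSeq (GRCm38.p6; 250 bases before to 50 after each start) held 30 of the 34 listed genes. The strict palindromic X-box, on either strand, was in 0 of their 37 promoters and in 0.5% of all 32851. The looser X-box consensus, chosen after that result, was in 23 of the 37 (62.2%) and in 34.7% of all promoters. The members with the largest change that held it were Tekt1, Cfap52 and Tmem212. These sites are shown because RFX genes rose with their carriers; each is 30 bases, 5′ to 3′ on the strand of the gene, with the motif in capitals.
Tekt1 (chr11:72361876-72361905, minus strand, 15 to 2 bases before the start): tccgtccgGTTGCCATAGAGACcgcagttt
Cfap52 (chr11:67965637-67965666, minus strand, 16 to 3 bases before the start): gtgcgccaGTTACCATGACGACcaggagac
Cfap52, second copy (chr11:67965840-67965869, minus strand, 219 to 207 bases before the start): attgtataGTTTTTAAAAAGTcacagacct
Tmem212 (chr3:27896414-27896443, minus strand, 67 to 55 bases before the start): cagctacaGTCTCTAAGAAACttgtgttta
A match of letters is not a bound site, and nothing here measures binding.

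Genes of neural stem and radial glial cells rose too. Of 12 tested, 11 (91.7%) rose and 1 fell, with a median of 4.50. Sox2, which keeps neural cells in a progenitor state, stood at 4.75, 4.76 and 4.93 CPM in MEF and 238, 194 and 303 CPM at D18. Sox1, an early mark of neural fate, had 0 counts in MEF and 29.5 to 41.5 CPM at D18 (at least 1295-fold higher). Pou3f2 and Pou3f3, neural POU factors, rose by 8.98 (SE 0.47) and 4.59 (SE 0.09). Nes, the filament nestin, was at 339 to 369 CPM in MEF and rose by 1.27 (SE 0.08). Dach1 fell, from 2.95 to 3.81 CPM to between 0.480 and 0.730 CPM.

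Transcription factors that pattern the neural tube rose for its dorsal and its ventral side. Of 15 tested, 9 (60%) rose, 4 fell and 2 did not pass. Dbx2, of the middle of the tube, had 0 counts in MEF and 31.3 to 34.4 CPM at D18, and Nkx6-2, of its ventral part, went from at most 0.227 CPM to between 24.7 and 48.5 CPM. Pax3, of the dorsal part, went from 2.01 to 2.76 CPM to between 21.0 and 25.1 CPM. Along the length of the brain, En2 and Gbx2, of the midbrain-hindbrain region, rose from 0 counts to between 35.0 and 49.1 CPM and from at most 0.442 CPM to between 4.36 and 7.49 CPM. Emx2, of the forebrain, was present in MEF at 18.14 to 22.40 CPM and fell to between 6.94 and 9.71 CPM.

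Oligodendrocyte genes rose as well, those of precursors and of myelin alike. Of 12 tested, 10 (83.3%) rose and 2 fell, with a median of 4.95. Olig2, a factor of the lineage that astrocyte precursors share, stood at 0.0609, 0.111 and 0.0567 CPM in MEF and at 28.8, 37.9 and 29.1 CPM at D18. Mbp, the myelin basic protein, went from 14.6 to 18.4 CPM to 853, 344 and 349.6 CPM, and Mag, another myelin protein, from at most 0.304 CPM to between 50.4 and 102 CPM. Cspg4, the NG2 proteoglycan of precursors and of pericytes, fell from between 433 and 457 CPM to between 9.16 and 15.6 CPM. Myrf, the factor of myelin genes, fell by 1.03 (SE 0.25), but not without D18 replicate 2 (edgeR adjusted p = 0.0502).

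Neuronal genes were mixed and low. Of 14 tested, 7 (50%) rose, 2 fell and 5 did not pass, with a median of 0.67; 1 fell without any 1 MEF replicate or without D18 replicate 1. Map2, of dendrites, rose from 16.67 to 18.05 CPM to between 97.3 and 159 CPM, and Elavl3, an RNA-binding protein of young neurons, from at most 0.304 CPM to between 6.10 and 10.9 CPM. The 2 that fell were Elavl4, a paralog of Elavl3, and Nefm. Dcx, of migrating neurons, did not pass, at 0.608 to 0.681 CPM in MEF and 0.570 to 1.52 CPM at D18. Neurod1 and Neurog2, which drive neuronal fate, had 0 counts in all 3 D18 libraries, where 3 counts come to 0.0800 to 0.0855 CPM.

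The protocol names its first stage for eye-field cells, and several of the factors that define the eye field were at or near the floor. Of the 12 listed genes, 6 had too few reads to test, 2 rose and 4 fell. Rax, the factor that opens retinal fate, was at 0.183, 0 and 0.510 CPM in MEF and at 0, 0.0533 and 0.171 CPM at D18. Six6 had 1 library with reads among the 6, at 0.0562 CPM, and Otx2, of the anterior neural plate and RPE, had 0 counts in all 6. Pax6, which acts in the eye field but also in radial glia and astrocytes, rose from between 0.454 and 0.700 CPM to between 39.8 and 45.5 CPM (log2 6.15, SE 0.16). Lhx2 fell, from 1.83 to 2.55 CPM to between 0.342 and 0.854 CPM, and the other member that rose was Otx1, to at most 0.871 CPM. With Rax, Six6 and Otx2 at or near the floor in both groups and Pax6 higher at D18, the markers were mixed. The group is therefore called D18 here.

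Of the 20 listed RPE genes, 10 had too few reads to test. Among them were Rpe65, the retinoid isomerase, Tyr and Tyrp1, of melanin synthesis, and Lrat, of retinoid storage. Tyr had 0 counts in all 6 libraries, and Rpe65 had none in MEF and at most 0.0570 CPM at D18. Of the 10 tested, 8 rose, 1 fell and 1 did not pass, with a median of 2.77. Rdh5, a retinol dehydrogenase, went from 0.794 to 1.08 CPM to between 43.2 and 50.8 CPM. Mitf, the pigment cell factor, went from 3.62 to 3.81 CPM to between 9.90 and 16.1 CPM. Mertk, the receptor for uptake of photoreceptor debris, fell by 1.73 (SE 0.20).

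Of the 13 pluripotency genes, 7 had too few reads to test, Pou5f1 among them, with 1 D18 library at 0.0562 CPM and no reads in the other 5. Of the 6 tested, 5 rose and 1 did not pass. Tdgf1, a Nodal co-receptor, had 0 counts in MEF and 8.76, 6.85 and 6.55 CPM at D18 (at least 256.7-fold higher). Klf4, which fibroblasts also make, did not pass, but fell without D18 replicate 1 (edgeR adjusted p = 0.0242) or 3 (0.0458).

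**Figure D2:**
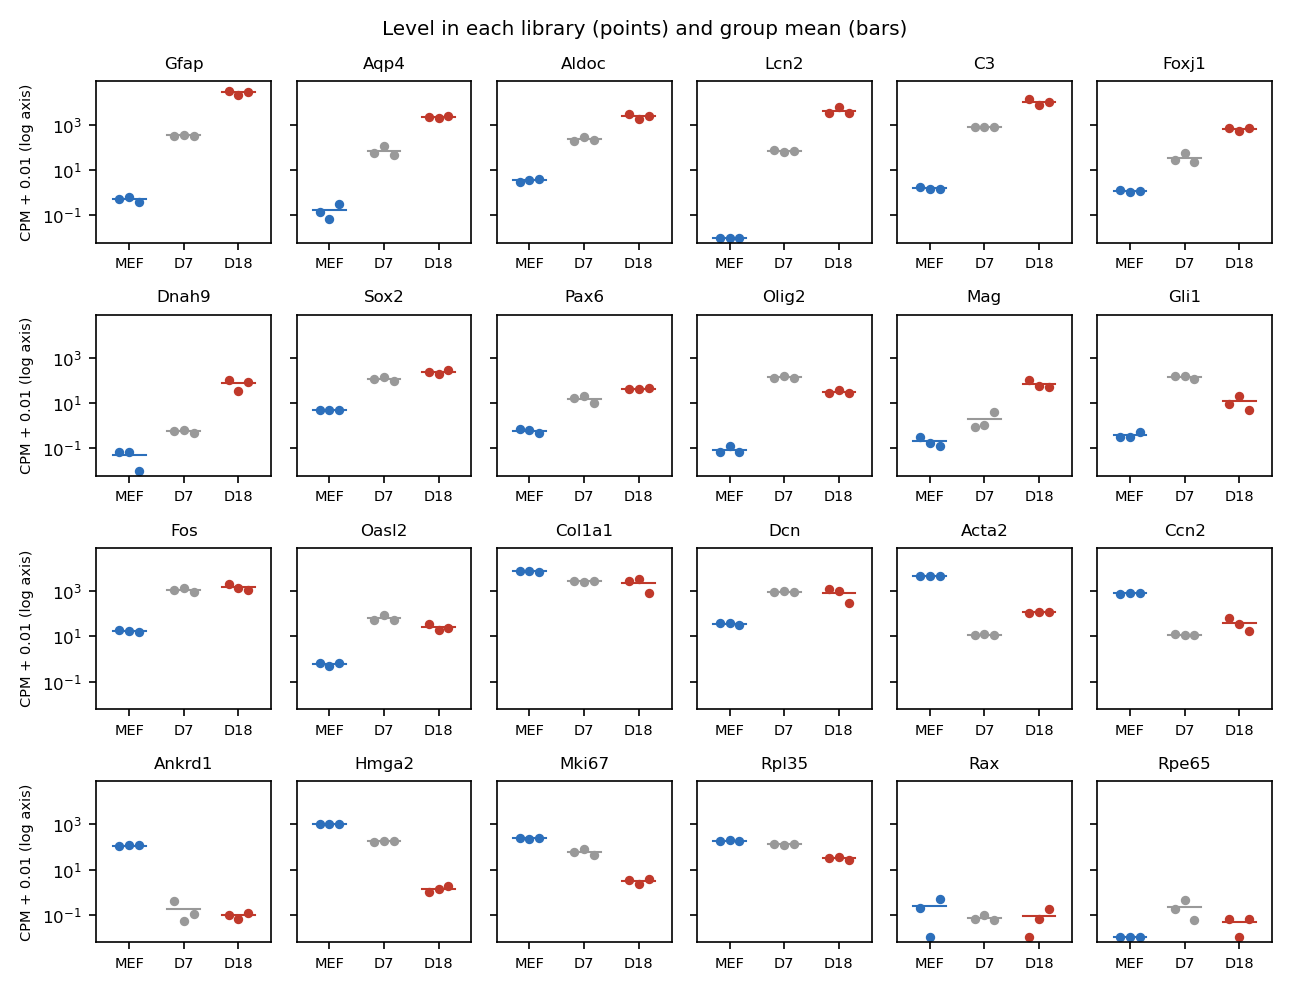
Level of 24 genes in CPM plus 0.01 on a log axis in each MEF, D7 and D18 library (points, replicates 1 to 3 from left to right) with group means (bars). Glial, ciliary and progenitor genes rise from the floor to as much as 31178 CPM for Gfap, contractile and growth genes fall, and Rax and Rpe65 stay under 1 CPM.

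By the same ranking, the 10 genes that fell furthest were Ankrd1, Klk10, Hmga2, Slc38a4, Crct1, Il1rn, Actg2, Col2a1, Sim2 and Gpr149. Slc38a4, an amino acid transporter, went from 137, 135 and 136 CPM to 0.281, 0.0533 and 0.285 CPM, 660-fold lower. Klk10, a secreted protease of the kallikrein family, stood at 23.6 to 25.5 CPM in MEF and had 2 counts at D18, a ratio of 1339 with an exact 95% counting interval of 370.3 to 11060. Several of the others belong to lists described next.

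The contractile genes fell as a whole. Of the 12 genes on the smooth muscle and myofibroblast list, 12 fell (100%), with a median log2 change of -3.79, and in each the MEF and D18 libraries did not overlap. Acta2 (chr19:34241090-34255590), the smooth muscle actin that defines myofibroblasts, stood at 4464, 4719 and 4587 CPM in MEF and at 108, 122 and 121 CPM at D18 (log2 -5.29, SE 0.10). Tpm1 and Tpm2, the tropomyosins, fell by 3.75 (SE 0.08) and 5.26 (SE 0.13). Actg2, the enteric smooth muscle actin, fell from between 99.7 and 101 CPM to between 0.0562 and 0.627 CPM. Myocd, the coactivator of this programme, was low from the start, at 1.85 to 2.27 CPM, and had 2 D18 libraries at 0.0562 and 0.0570 CPM and 1 at 0. Myl9, a myosin light chain, changed least, by -1.42 (SE 0.14), from 337 to 348 CPM to between 103 and 153 CPM. Tagln, at 4.53 to 5.08 CPM in MEF, shares 67.9% of its exonic length with another annotated gene, and its level is uncertain.

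The serum response factor drives many of these genes through the CArG box, written CC, then 6 bases of A or T, then GG. It was in 1 of the 9 promoters found for the list and in 1.6% of all 32851. The window leaves out more distant copies, and the strict pattern leaves out variants of the box. The carrier was Myl9, shown as the single match of the list.
Myl9 (chr2:156775293-156775322, plus strand, 161 to 152 bases before the start): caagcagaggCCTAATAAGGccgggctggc

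Targets of TGF-beta and YAP fell with them. Of 15 tested, 13 (86.7%) fell, 0 rose and 2 did not pass, with a median of -2.26. Smad7, the feedback inhibitor of TGF-beta signalling, fell from between 150.1 and 161 CPM to between 9.80 and 18.6 CPM. Of the YAP targets, Ankrd1 fell furthest of all genes of at least 10 CPM, from 109, 117 and 118 CPM to 0.0843, 0.0533 and 0.114 CPM (log2 -10.37, SE 0.14), and Ccn2 fell from between 773 and 832 CPM to between 17.1 and 65.8 CPM. Ccn1, a close relative of Ccn2, did not pass: its D18 libraries, at 1400.0, 949.6 and 494 CPM, lay on both sides of the MEF range of 1132 to 1211 CPM, and its change was 0.01 without replicate 3. Ltbp2 did not pass either, at 479 to 493 CPM in MEF and 212, 318 and 59.9 CPM at D18, but fell by 0.88 without replicate 3 (edgeR adjusted p = 0.00217).

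The matrix genes did not follow as a group. Of 22 tested, 9 fell, 4 rose and 9 did not pass, with a median of -0.78. Without D18 replicate 3, 10 fell and 7 rose. The summed level of the list was 34737 to 36414 CPM in MEF and 10096 to 25876 CPM at D18. Against the mean of the other D18 libraries, its median log2 level was 0.43 in replicate 1, 0.60 in replicate 2 and -1.47 in replicate 3.

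Fn1, fibronectin, was the most abundant gene of MEF at 10626, 11609.6 and 10971 CPM and fell to 1039.5, 899.9 and 445 CPM. Thbs1, thrombospondin 1 and next in abundance, fell from between 9276 and 9496 CPM to between 258 and 435 CPM. Col1a1, the main chain of type I collagen, fell from between 7216 and 7656 CPM to 2787, 3526 and 783 CPM (log2 -1.66, SE 0.50). Without D18 replicate 3 the change was -1.24 (edgeR adjusted p = 5.75e-05). Its partner Col1a2 did not pass, at 2399 to 2404 CPM in MEF and 2508, 2277 and 508 CPM at D18, nor without replicate 3 (log2 -0.01). Lox, which crosslinks collagen, fell by 2.63 (SE 0.13).

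The 4 genes that rose were Col3a1, Dcn, Lum and Sparc. Col3a1, of type III collagen, went from 502 to 517 CPM to 7832, 5565 and 1421 CPM (log2 3.27, SE 0.58). Dcn and Lum, the small proteoglycans decorin and lumican that space collagen fibrils, went from 32.9 to 39.5 CPM to 1246, 1024 and 305 CPM and from 1.81 to 2.13 CPM to 276, 261 and 65.8 CPM. In each of these 3 genes D18 replicate 3 was the lowest D18 library and still lay above MEF. Sparc, which astrocytes make as well, rose by 0.64 (SE 0.11).

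**Figure D3:**
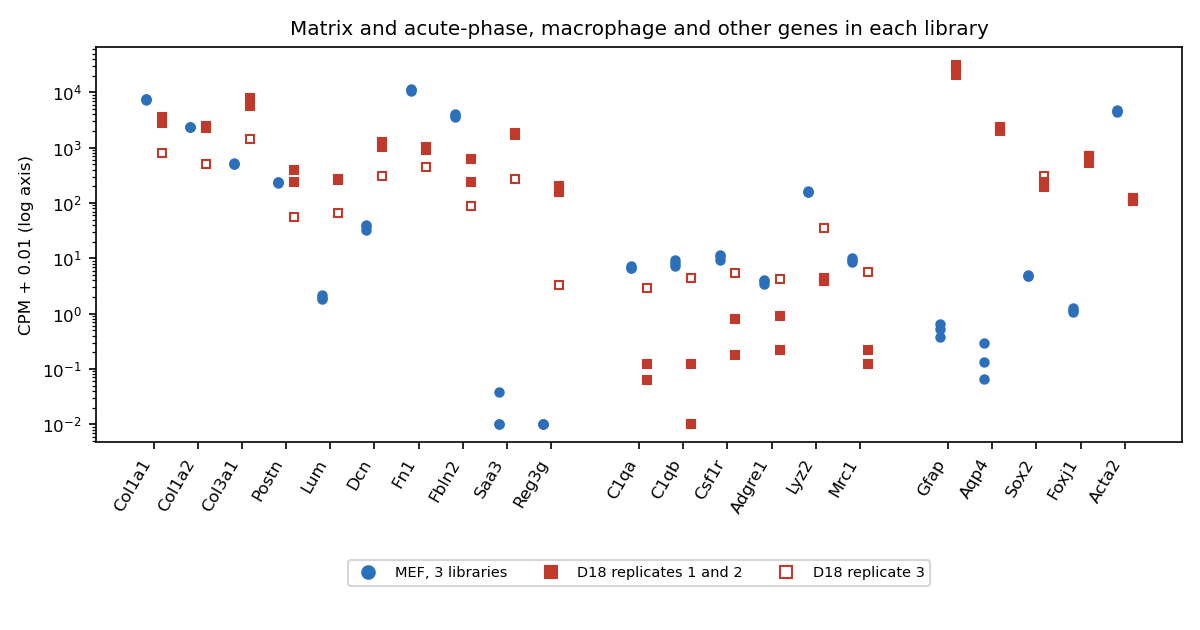
Level in CPM plus 0.01 (log axis) of matrix and acute-phase genes (left), macrophage genes (middle) and genes of other lists (right) in each MEF library (circles) and D18 library (squares, replicate 3 open). Replicate 3 lies below the other D18 libraries for Col1a1 (783 CPM) and Reg3g (3.25 CPM), above them for C1qa (2.91 CPM), and among them or close to them for Gfap and Acta2.

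Transcription factors of the mesenchyme fell more evenly. Of 16 tested, 12 (75%) fell, 1 rose (2 without D18 replicate 3) and 3 did not pass. Foxc2, of paraxial mesoderm and vessels, went from 52.1 to 62.2 CPM to between 0.393 and 0.427 CPM (log2 -7.06, SE 0.14), and Snai2, of the epithelial-mesenchymal transition, from 46.2 to 51.8 CPM to between 1.85 and 3.59 CPM. Twist1, another factor of that transition, fell by 0.74 (SE 0.24), a call that was lost without MEF replicate 1 (edgeR adjusted p = 0.0724), MEF replicate 3 (0.0531) or D18 replicate 2 (0.12). Zeb2, which glia and neural crest also use, was the member that rose, by 0.25 (SE 0.05).

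Hox genes, which record the level of the body a cell comes from, fell mostly in the middle and posterior paralog groups. Of 36 tested, 22 (61.1%) fell, 6 rose and 8 did not pass. In paralog groups 1 to 4, 4 of 10 rose and 2 fell; in groups 5 to 8, 1 of 11 rose and 8 fell; in groups 9 to 13, 1 of 15 rose and 12 fell. The difference between these groups was not tested. Hoxd13, of the distal limb and tail, went from 8.63 to 9.44 CPM to 0, 0.107 and 0.114 CPM, and Hoxb9 from 67.5 to 71.6 CPM to between 5.34 and 8.51 CPM. At the anterior end Hoxd3 went from 0.276 to 0.340 CPM to between 5.52 and 8.97 CPM and Hoxd4 from at most 0.567 CPM to between 1.97 and 2.74 CPM.

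Genes of other mesodermal tissues fell for the most part. Of 11 skeletal muscle genes tested, 9 fell, 0 rose and 2 did not pass, and the summed level went from 158 to 163 CPM to between 4.13 and 9.69 CPM. Acta1, the skeletal muscle actin, made up most of it, at 118 to 125 CPM in MEF and 0.570 to 0.960 CPM at D18. Of 9 cartilage and bone genes, 6 fell and 2 rose, and the summed level went from 2001 to 2032 CPM to between 107 and 286 CPM. Col2a1, the collagen of cartilage, went from 903, 939 and 916 CPM to 2.72, 5.73 and 0.883 CPM (log2 -8.20, SE 0.63). Alpl, an alkaline phosphatase that bone shares with other tissues, rose from at most 0.454 CPM to between 4.22 and 13.4 CPM. Comp, a cartilage matrix protein, was the other that rose, from 3.57 to 5.67 CPM to 18.34, 21.98 and 4.19 CPM; the D18 value of replicate 3 lay within the MEF range. The call of Comp was lost without MEF replicate 1 or 3 or D18 replicate 1 or 2 (edgeR adjusted p = 0.0727 to 0.132).

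Division genes fell without exception on both lists that describe it. All 16 genes of DNA replication and all 20 genes of mitosis fell (100% each), with medians of -3.10 and -5.23, and in each the MEF and D18 libraries did not overlap. Mki67, the proliferation antigen, stood at 250.2, 220.3 and 244 CPM in MEF and at 3.48, 2.24 and 3.87 CPM at D18 (log2 -6.22, SE 0.20). Bub1, of the spindle checkpoint, fell from between 35.4 and 36.7 CPM to between 0.107 and 0.590 CPM. Rrm2, which supplies nucleotides for DNA synthesis, fell by 5.33 (SE 0.22), while Pcna, the sliding clamp that also serves repair, fell by 1.43 (SE 0.06) and kept 57.7 to 62.8 CPM.

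Many genes of mitosis are silenced in resting cells through the cell cycle homology region (CHR), with the core TTTGAA. On either strand, it was in 12 of the 17 promoters found for the mitosis list (70.6%) and in 17.9% of all 32851. The 3 members with the largest change that held it are shown since mitosis genes moved together, with the core in capitals.
Mki67, first copy (chr7:135716478-135716507, minus strand, 116 to 111 bases before the start): ttagcgccagaaTTTGAAccgccgttttgg
Mki67, second copy (chr7:135716460-135716489, minus strand, 98 to 93 bases before the start): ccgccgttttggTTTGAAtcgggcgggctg
Plk1 (chr7:122159453-122159482, plus strand, bases 31 to 36 of the transcript): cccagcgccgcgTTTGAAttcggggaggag
Ndc80 (chr17:71526811-71526840, minus strand, bases 30 to 35 of the transcript): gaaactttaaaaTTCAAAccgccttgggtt
Plk1, a mitotic kinase, fell by 5.91 (SE 0.13), and Ndc80, of the kinetochore, by 5.75 (SE 0.19). The 6-letter core is short, and a match is not a bound site.

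Inhibitors of the cycle and p53 targets moved both ways: of 13, 4 (30.8%) rose, 7 (53.8%) fell and 2 did not pass. The shares over all genes were 40.7% and 38.2%. Cdkn2a, the locus of p16 and p19ARF, rose from between 49.4 and 50.4 CPM to between 123 and 156 CPM, and Cdkn1b, of p27, from 26.3 to 27.1 CPM to between 55.6 and 69.3 CPM. Cdkn1a, of p21 and a target of p53, fell from between 612 and 672 CPM to between 155 and 253 CPM, as did Mdm2, from 275 to 296 CPM to between 59.1 and 94.2 CPM.

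Genes of fetal growth, many of them silenced after birth, fell in full: 13 of 13 tested (100%), with a median of -4.76. Hmga2 (chr10:120361275-120476469), a chromatin protein of embryonic and tumour cells, stood at 1015, 1047 and 1008 CPM in MEF and at 1.01, 1.33 and 1.94 CPM at D18, 717-fold lower. Igf2bp1, which stabilises growth-related mRNAs, went from 100.5 to 105 CPM to between 0.456 and 0.693 CPM. The imprinted genes Dlk1 and Igf2 went from 293 to 311 CPM to between 4.16 and 7.25 CPM and from 419 to 472 CPM to 18.002, 7.01 and 2.82 CPM. H19, the imprinted RNA beside Igf2, stood at 1071, 521 and 136 CPM at D18 against 3041 to 3352 CPM in MEF, and its fall did not pass without D18 replicate 2 (edgeR adjusted p = 0.0961).

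A list of cytosolic ribosomal protein genes, added after the values were seen, fell nearly as completely. Of 76 genes, 75 (98.7%) fell and 1 did not pass, with a median of -1.77; 1 rose without D18 replicate 3 or with unscaled library totals. Their summed level went from 46728 to 49233 CPM to between 12196 and 14442 CPM. Rpl35 went from 182 to 205 CPM to between 27.4 and 37.3 CPM, and Eef1a1, the elongation factor that carries tRNA to the ribosome, from 8901 to 9231 CPM to between 2322 and 2552 CPM. These genes have many near-identical pseudogenes and how shared reads were counted is not given, so their levels are uncertain.

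The medium acts on several signalling pathways, and lists of pathway genes were read at D18. These lists mix targets and feedback genes with components such as receptors and ligands, so their counts are not a measure of pathway output. Notch was listed too, though none of the compounds is described above as acting on it. Of 12 Hedgehog genes, 7 (58.3%) rose, 3 fell and 2 did not pass. Gli1, the standard readout of Smoothened, stood at 0.304, 0.304 and 0.510 CPM in MEF and at 9.27, 21.1 and 4.96 CPM at D18 (log2 4.97, SE 0.64). Ptch1, the receptor and also a target, rose from between 27.5 and 31.3 CPM to between 75.3 and 134 CPM, but Hhip, another target, fell from between 9.76 and 10.2 CPM to between 2.45 and 7.17 CPM. The call of Hhip was lost without any 1 of the MEF replicates or without D18 replicate 1 (edgeR adjusted p = 0.0596 to 0.0737). Gas1, a co-receptor, rose from between 27.6 and 37.6 CPM to between 162 and 175 CPM. Cdon was among the members that fell.

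Wnt targets split, with 6 of 14 (42.9%) higher, 7 (50%) lower and 1 not passing, beside 40.7% and 38.2% over all genes. Axin2, the feedback target most used as a readout, rose from between 10.4 and 13.9 CPM to between 33.9 and 50.2 CPM (log2 1.73, SE 0.18). Tnfrsf19, a receptor of progenitors, rose from between 1.74 and 2.10 CPM to between 64.5 and 80.9 CPM. By the rule used to name genes, the strongest falls on this list were those of Rnf43 and Lef1. Ccnd1 and Myc, which answer to many signals, also fell, by 1.83 (SE 0.13) and 1.77 (SE 0.41). Myc did not pass without D18 replicate 2 (edgeR adjusted p = 0.0553).

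On the BMP list, 4 of 12 genes rose and 6 fell. Id1 and Smad6, direct targets, fell by 0.98 (SE 0.14) and 2.90 (SE 0.10), and Grem1, a secreted BMP antagonist of fibroblasts, went from 406 to 429 CPM to between 2.58 and 7.68 CPM. Id4 and Hey1, which neural cells also use, rose by 4.00 (SE 0.24) and 5.94 (SE 0.23).

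Of 13 FGF and ERK feedback genes, 10 (76.9%) fell, 1 rose (2 under each of the other scalings or without D18 replicate 1) and 2 did not pass in cells kept with bFGF. Etv4 went from 48.1 to 49.1 CPM to between 6.04 and 7.04 CPM, and Dusp6, a phosphatase of ERK, from 99.0 to 104 CPM to between 21.6 and 41.9 CPM. Etv5 was the member that rose, by 0.52 (SE 0.13). Of 12 Notch genes, 6 rose, 2 fell and 4 did not pass. Notch1 rose from between 49.99 and 54.58 CPM to between 233 and 245 CPM, and Hes1 fell from between 47.0 and 55.2 CPM to between 10.4 and 16.9 CPM.

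Of 17 NF-kappaB targets and chemokines, 11 (64.7%) rose, 0 fell and 6 did not pass, with a median of 1.62, in cells kept with an IKK inhibitor. Without D18 replicate 3, 14 rose, and without replicate 2, 1 fell. Nfkbia, the inhibitor that NF-kappaB itself induces, stood at 19.6, 21.9 and 21.6 CPM in MEF and 153, 147 and 85.3 CPM at D18. Saa3, an acute-phase apolipoprotein, had 1 count over the MEF libraries and 1846, 1689.8 and 276 CPM at D18, and rose with and without replicate 3. Cxcl1, a neutrophil chemokine, went from 1.22 to 1.49 CPM to 57.7, 54.3 and 16.4 CPM, a log2 change of 4.99, or 5.38 without replicate 3. Ccl2, a monocyte chemokine, did not pass, at 42.5 to 44.5 CPM in MEF and 34.3 to 104 CPM at D18, and rose by 1.00 without replicate 3 (edgeR adjusted p = 0.000915). Reg3g, an antibacterial lectin, had 0 counts in MEF and 160.1, 201 and 3.25 CPM at D18, with replicate 3 far below the other D18 libraries. Its call was lost without D18 replicate 2 (edgeR adjusted p = 0.211) and in limma-voom (adjusted p = 0.182).

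Interferon-induced genes rose in full: 15 of 15 tested (100%), with a median of 2.27, but their levels stayed low. Oasl2 stood at 0.639, 0.498 and 0.624 CPM in MEF and 34.77, 19.02 and 22.91 CPM at D18, and Ifit3 at 2.59 to 3.69 CPM and 29.3 to 61.7 CPM. Genes of class I antigen presentation rose in 10 of 11 (90.9%), with a median of 3.26. H2-K1, a classical class I heavy chain, stood at 25.0, 29.1 and 24.1 CPM in MEF and at 615, 567 and 412 CPM at D18; the class I heavy chains are near copies of each other and may share reads. Psmb9, of the immunoproteasome, went from 0.166 to 0.244 CPM to between 12.5 and 17.0 CPM. B2m, the shared light chain, did not pass, at 301 to 321 CPM in MEF and 202 to 308 CPM at D18.

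Of 14 immediate early and heat shock genes, 8 rose, 4 fell and 2 did not pass. Fos went from 15.74 to 18.27 CPM to 2029, 1316 and 1123 CPM (log2 6.43, SE 0.27) and Egr1 from 237 to 278 CPM to 1921, 1444 and 862 CPM. Hspa5, the main chaperone of the endoplasmic reticulum, fell by 0.97 (SE 0.16).

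Metabolic lists held changes in both directions, as did all genes tested. Of 20 glycolytic genes, 9 (45%) rose, 7 (35%) fell and 4 did not pass, near the 40.7% and 38.2% over all genes. Ldhb and Slc16a1, for lactate exchange, rose from between 62.0 and 67.1 CPM to between 530.2 and 638 CPM and from 48.1 to 52.5 CPM to between 540.5 and 598 CPM, while Ldha fell from between 1411 and 1505 CPM to between 492 and 859.5 CPM. Pkm, the pyruvate kinase, fell by 1.36 (SE 0.11). Of 14 sterol synthesis genes, 9 fell and 3 rose, among them Hmgcs1 by 0.88 (SE 0.08). Apoe, which carries lipids between glia and neurons, stood at 153, 162 and 153 CPM in MEF and at 9304, 7138 and 6771 CPM at D18. Of 12 metallothionein and NRF2 genes, 7 rose; Mt3, the brain metallothionein, went from 1.11 to 2.07 CPM to between 921 and 1283 CPM. Of 14 lysosomal genes, 5 rose and 5 fell (35.7% each), again near the shares over all genes. Only 3 rose without any 1 of MEF replicates 1 and 3 and D18 replicate 1. Ctsb, a cathepsin, went from between 1217 and 1325 CPM up to between 4679 and 6125 CPM.

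Of 8 genes of DNA methylation, 3 rose and 3 fell (37.5% each), near the shares over all genes, and 2 did not pass. Dnmt1, which copies methylation during replication and is the enzyme that RG108 inhibits, fell from between 241.01 and 260.19 CPM to between 56.8 and 76.5 CPM, and Uhrf1, its partner at the replication fork, from 137 to 143 CPM to between 9.39 and 12.2 CPM. Tet1, which starts demethylation, rose from between 2.72 and 3.15 CPM to between 6.69 and 7.72 CPM.

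Markers of cell types that could be carried along were also measured. Of 12 macrophage genes tested, 6 fell, 1 rose and 5 did not pass; without D18 replicate 3, 10 fell. Their summed level was 237 to 239 CPM in MEF and 54.6 to 117 CPM at D18. C1qa stood at 6.64, 7.19 and 6.64 CPM in MEF and at 0.112, 0.0533 and 2.91 CPM at D18, and Csf1r at 9.38 to 11.6 CPM and at 0.169, 0.800 and 5.33 CPM, with the highest D18 value of each in replicate 3. That library is also the lowest D18 library for the matrix genes above, and the part of other cells in this was not tested. C1qa and Csf1r did not pass, and both fell without D18 replicate 3 (log2 -6.32 and -4.43). Cd14 rose, from 4.64 to 7.12 CPM to between 38.7 and 71.7 CPM, and fibroblasts and glia can make it as well.

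Of 8 endothelial genes tested, 5 fell and 1 rose, the latter not without MEF replicate 2 or 3 or D18 replicate 1 or 2, and the summed level went from 173 to 191 CPM to between 8.23 and 21.2 CPM. Kdr, a VEGF receptor, fell from between 49.3 and 55.3 CPM to between 0.213 and 0.534 CPM, while Pecam1, the defining adhesion protein, was at most 0.624 CPM in the 6 libraries. Of 8 epithelial genes, 5 fell and 1 rose, with Krt19 going from 125 to 137 CPM to between 2.30 and 4.05 CPM. Of 9 choroid plexus genes, 3 rose and 2 fell, and Ttr, which defines that tissue, had 0 counts in all 6 libraries. Of 10 neural crest and Schwann cell genes, 7 rose and 3 fell, but 1 fell with unscaled library totals or without MEF replicate 2, MEF replicate 3 or D18 replicate 1. Ednrb, an endothelin receptor that astrocytes share, went from 7.46 to 9.35 CPM to between 267 and 439 CPM, and Sox10 changed by 0.68 (SE 0.12).

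**Figure D4:**
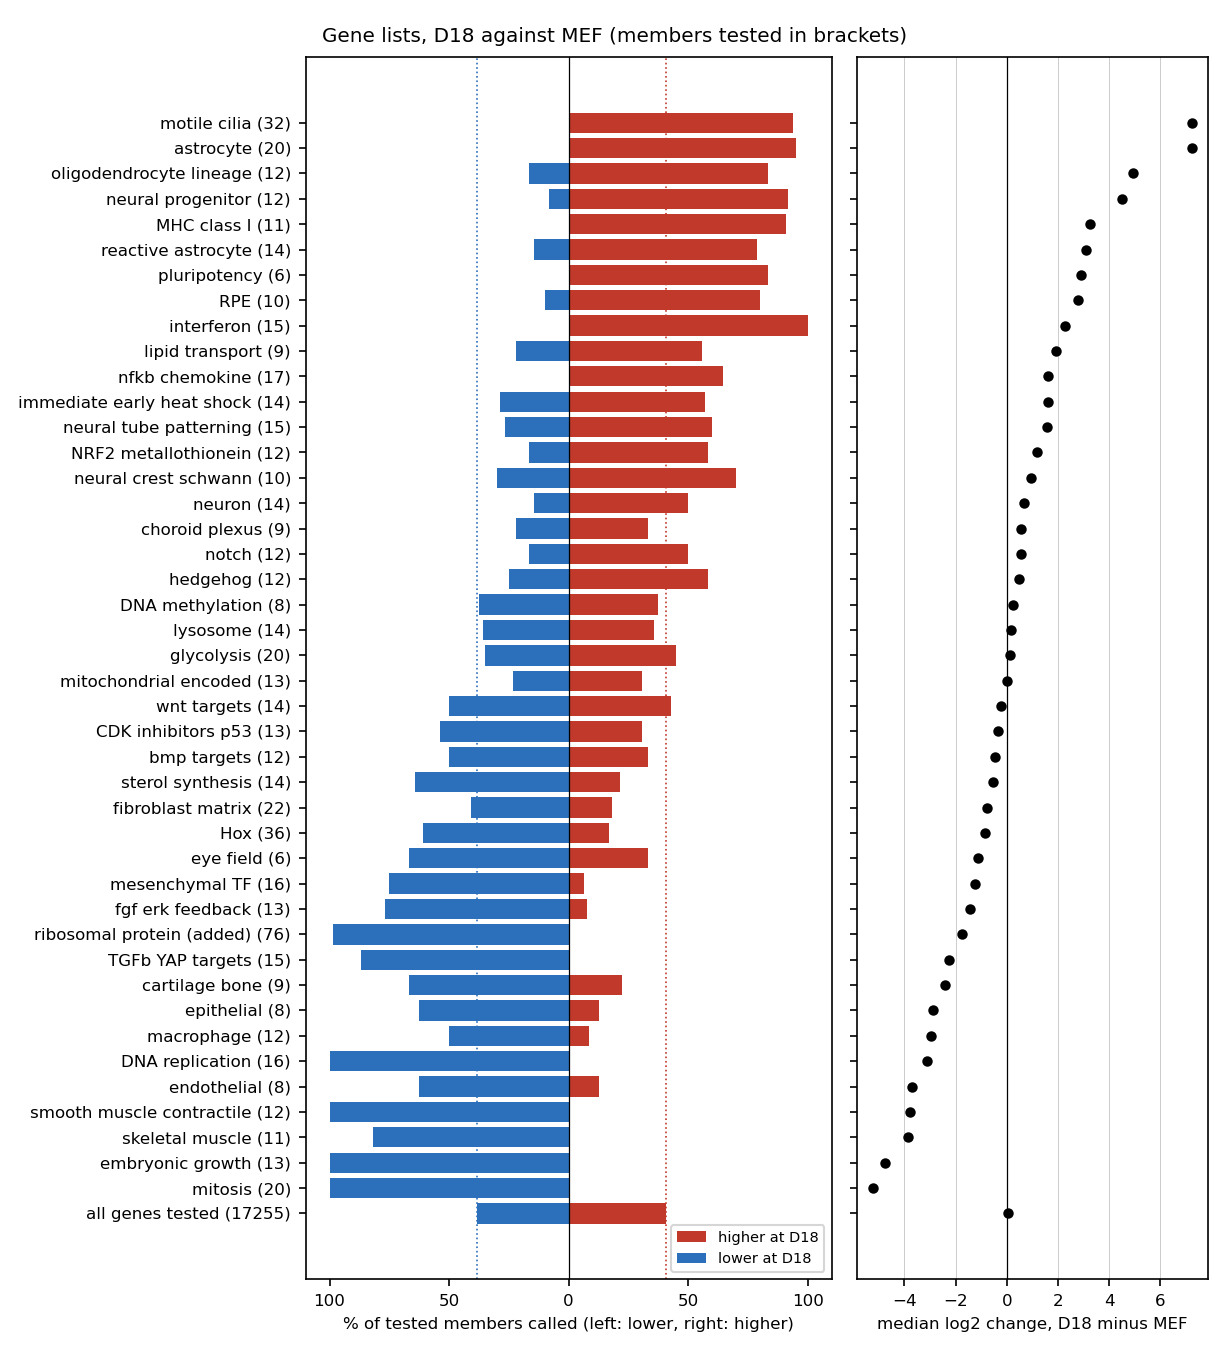
For each gene list (number of members tested in brackets), the percentage of members called lower (left, blue) and higher (right, red) at D18, and the median log2 change of D18 minus MEF (right panel); dotted lines mark the shares over all genes tested, 38.2% lower and 40.7% higher. Motile cilia and astrocyte genes top the order with medians of 7.24 and 7.23, and mitosis genes end it at -5.23.

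The 3 libraries of day 7 in the same medium (D7) show whether a change was already there. They took no part in the test, but they are read against the MEF and D18 libraries that chose the genes, so their position is a description. Of the 6954 genes that rose with no overlap, D7 lay between both groups for 2562 (36.8%), overlapped D18 for 1468 (21.1%) and lay beyond it for 573 (8.2%). D7 overlapped MEF for 1614 (23.2%), lay on the far side of MEF for 601 (8.6%) and overlapped both for 136 (2%). Of the 6582 that fell, it lay between for 2802 (42.6%), overlapped D18 for 1655 (25.1%) and lay beyond it for 507 (7.7%). It overlapped MEF for 968 (14.7%), lay on the far side of MEF for 508 (7.7%) and overlapped both for 142 (2.2%).

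The lists took different places in this order. D7 lay between the groups for 13 of the 19 astrocyte genes that rose and for 19 of the 30 ciliary genes, and for 10 of the ciliary genes it still overlapped MEF. Gfap was at 321, 353 and 319 CPM at D7 and Foxj1 at 26.1, 54.3 and 22.9 CPM. Of the 15 interferon genes, 12 (80%) were higher at D7 than at D18, as were 6 of the 10 class I genes; Oasl2 was at 51.6 to 85.0 CPM. Gli1 was at 162, 160.4 and 119.8 CPM at D7, above every D18 library, and so was Olig2, at 128, 155 and 132 CPM.

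Among genes that fell, most of the contractile and TGF-beta lists were at or past their D18 level by day 7. D7 overlapped D18 or lay beyond it for 8 of 12 contractile genes, with the other 4 between, and for 12 of 13 TGF-beta and YAP targets, with the other 1 overlapping MEF. Acta2 was at 10.998, 11.991 and 11.485 CPM at D7, below the 108 to 122 CPM of D18, and Smad7 at 11.51 to 15.56 CPM. Division genes were part of the way there: D7 lay between the groups for 16 of 16 replication and 19 of 20 mitosis genes, with Mki67 at 44.5 to 79.4 CPM. The ribosomal protein genes were between in 66 of 75. Of the 10 FGF and ERK feedback genes that fell, 7 (70%) were higher at D7 than in MEF, against 7.7% of all genes that fell, and Dusp6 was at 275 to 286 CPM.

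**Figure D5:**
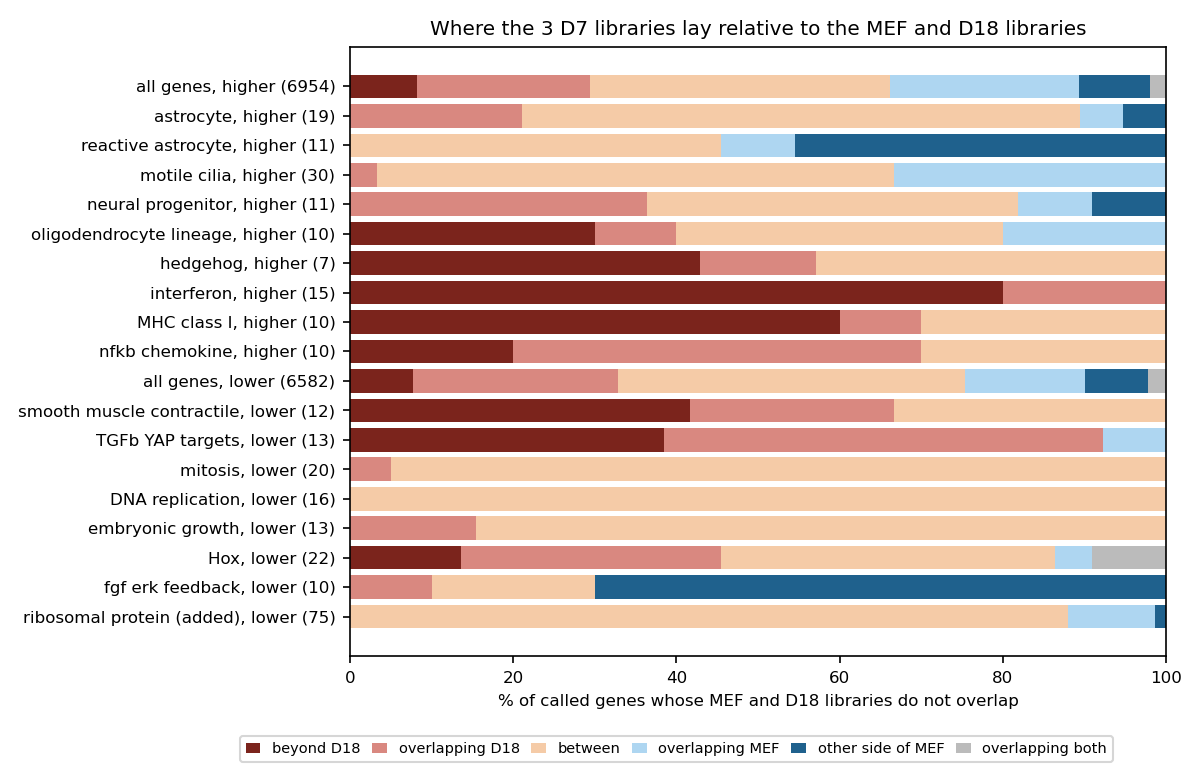
For genes that rose or fell between MEF and D18 without overlap (number in brackets), the percentage whose 3 D7 libraries lay beyond D18, overlapped it, lay between, overlapped MEF, lay on the other side of MEF or overlapped both. Interferon genes stand out with 80% beyond D18, replication genes with 100% between, and FGF and ERK feedback genes with 70% on the other side of MEF.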

How the data were processed

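The data are bulk RNA-seq counts of 14 mouse libraries, of which the 3 MEF and 3 D18 libraries were compared and the 3 D7 libraries described. The authors' deposited table holds whole-number read counts per gene symbol. Per the submitters' processing notes, STAR 2.7.11a, featureCounts, edgeR 4.0.16 and limma 3.58.1 were used with mm10 or GRCm38 for mouse. The annotation release, the strand setting and the treatment of reads that map more than once are not given in the sources used here, so overlapping genes and near copies are uncertain. Library totals ran from 34560073 to 40156109 in the 6 libraries compared, where 1 count is worth 0.0267 to 0.0304 CPM.

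Here the counts were tested with edgeR 4.0.16 in R 4.3.3: scaling by the trimmed mean of M values over all 14 libraries, edgeR's own filter on low counts, and a robust quasi-likelihood test of the 2 groups without a block, with Benjamini-Hochberg adjustment over 17255 genes. Standard errors are the log2 change divided by the square root of F. A fold against a group without reads is a lower bound against 3 counts over that group, and intervals cover counting error only. DESeq2 1.42.0 and limma-voom 3.58.1, other scalings and filters, a fit on all 14 libraries, a replicate block and the omission of each library were alternatives. The procedure was tested on simulated data in which few genes changed, so that test does not cover a comparison in which most genes changed.

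The 42 gene lists and the members were chosen with earlier results of these data known, and a ribosomal list was added later. Named genes are the 10 highest and lowest changes at 10 CPM or more without overlap, the 5 most abundant per group, per list the 2 strongest changes up and down plus its most abundant uncalled gene, and a fixed set of lineage genes; others named were chosen after their values were seen, and not every gene of the rule is printed. Coordinates are GENCODE vM21 on GRCm38; 96.4% of symbols matched that annotation. Some genes are not reported here.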

Additional observations from a re-analysis of the deposited data

How the results depend on the processing

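Across the alternatives, no gene called in the comparison was called in the opposite direction. The counts of genes higher and lower stayed within 1.5 times of 7016 and 6594 except with a mean of at least 5 CPM required, where fewer genes were tested: 4639 were higher, and 2867 and 2612 were higher and lower by 2-fold or more. Leaving out 1 library gave 6549 to 7017 genes higher and 6114 to 6684 lower, and 4981 to 5104 and 3801 to 4032 by 2-fold or more. With unscaled library totals the median over all genes went from 0.05 to 0.16, with 7432 higher and 6023 lower. DESeq2 gave 7115 and 6534. Whether replicate numbers pair the libraries cannot be told. Same-numbered MEF and D18 libraries had deviations correlated at 0.016, 0.009 and 0.027. The MEF libraries differed too little for this to decide it (coefficient of variation 0.0425). The replicate block gave 6776 and 6449 calls. With 1 library left out at a time, Ccn1 ran from -0.69 to 0.01, the latter, without D18 replicate 3, being the reverse of its direction and with no call. With no filter on low counts, Col1a1 (edgeR adjusted p = 0.0993), H19 (0.0757), Myc (0.0517), Reg3g (0.147) and Twist1 (0.11) did not pass. How far depth limits small changes was not tested.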
